A study of Mus musculus with 6 samples.

Results

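A set of 35 genes of mitochondrial fuel use was followed in mouse hematopoietic stem cells of the long-term repopulating kind, which sustain blood formation after transplantation. They were chosen by symbol, from pyruvate entry and the pyruvate dehydrogenase complex through the citrate cycle and malate-aspartate shuttle to fatty acid oxidation, and all 35 were found among the 41128 genes in the table. The control group was C57BL mice given the vehicle DMSO, and the treated group was C57BL mice given YH250, which the submitters name a p300/catenin antagonist, at 2 mg per kg under the skin. Marrow was taken 16 h after dosing, and both groups were sorted for the same surface phenotype, Lin-Sca1+c-Kit+CD41-CD48-CD150+. There were 3 libraries per group, and the labels number them 1 to 3 in each group without saying what a number stands for. The labels give no age and do not say whether each library came from its own animal, so p-values measure only the spread between these libraries, which may be technical. The series' design text names genes of stemness maintenance as its question, not metabolism.

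Pyruvate made by glycolysis crosses the inner mitochondrial membrane through the mitochondrial pyruvate carrier and is turned into acetyl-CoA by the pyruvate dehydrogenase complex. The citrate cycle oxidizes acetyl-CoA, and the malate-aspartate shuttle carries reducing equivalents from cytosolic NADH into mitochondria. Long-chain fatty acids enter as carnitine esters and are shortened to acetyl-CoA by beta-oxidation, whose first step hands electrons to the respiratory chain through electron transfer flavoprotein. Hematopoietic stem cells are known for relying on glycolysis while quiescent, for using pyruvate dehydrogenase kinases to hold pyruvate out of mitochondria, and for needing fatty acid oxidation downstream of PPAR-delta for self-renewing divisions.

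Levels are in RPM, taken here as reads scaled by the authors to one common total per library, since no unit is stated. The 6 libraries held enough reads that 1 RPM stood for 21.96 to 31.19 of them, and reads in genes made up between 70.0% and 95.9% of the scaling total, least in DMSO 1 and most in DMSO 3. Transcripts of the sort markers differed by library number. Cd48, whose protein the sort excluded, measured 10.2 RPM in DMSO 1 and 13.1 RPM in YH250 1, stood at 31.5 and 66.9 RPM in the second libraries, and reached 258 and 252 RPM in the third ones. Slamf1, which encodes the CD150 that the sort required, went the other way: DMSO 1 and YH250 1 had 35.5 and 31.5 RPM, DMSO 2 and YH250 2 had 0.515 and 3.92 RPM, and DMSO 3 and YH250 3 had 4.69 and 1.54 RPM. The libraries numbered 2 and 3 thus went against their labelled surface phenotype at the RNA level. The sum of 10 B cell genes also differed by number, at 65.6 and 177 RPM in the first libraries but 762 and 915 RPM in the third. The sum of 13 T and NK cell genes rose with the number in both groups. It was 63.2, 131.7 and 499.9 RPM in DMSO 1 to 3 and 143.3, 213.2 and 504.6 RPM in YH250 1 to 3. That of 13 myeloid granule genes rose too, at 321, 475 and 933 RPM in DMSO and 465, 672 and 930 RPM in YH250. The endothelial and erythroid marker sums did not follow the number. That of 11 endothelial and stromal genes was 450.5 RPM in YH250 2 against 104 to 136 RPM in the other 5 libraries. That of 10 erythroid genes was 131, 374 and 246 RPM in DMSO 1 to 3 and 189, 207 and 145 RPM in YH250 1 to 3.

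The sequences before the start sites of the genes that the comparisons below turn on are shown first. Fh1, Mdh2 and Idh2 had YH250 values that did not overlap the DMSO values, as did Hadha, which shares a short divergent promoter with its partner Hadhb, and Acads and Acadvl differed between library numbers. The stretches are RefSeq sequence of GRCm38.p6, written 5′ to 3′ on the strand of the gene and ending just before its start, and capitals mark the GC box, GGGCGG or its complement CCGCCC. Fh1 lies at chr1:175625636-175625785 (minus strand), Mdh2 at chr5:135778399-135778479 (plus), Idh2 at chr7:80115393-80115542 (minus), the gap between Hadha and Hadhb at chr5:30155163-30155247 (read on the Hadhb strand, plus), Acads at chr5:115119347-115119496 (minus) and Acadvl at chr11:70015429-70015578 (minus).
Fh1: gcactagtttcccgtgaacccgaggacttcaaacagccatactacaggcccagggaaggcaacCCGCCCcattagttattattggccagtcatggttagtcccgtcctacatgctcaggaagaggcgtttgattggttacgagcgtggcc
Mdh2: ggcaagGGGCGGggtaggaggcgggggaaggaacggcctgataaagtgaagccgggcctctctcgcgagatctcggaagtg
Idh2: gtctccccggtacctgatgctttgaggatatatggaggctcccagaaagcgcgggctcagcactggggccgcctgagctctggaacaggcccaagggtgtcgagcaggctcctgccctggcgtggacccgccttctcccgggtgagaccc
Hadha-Hadhb: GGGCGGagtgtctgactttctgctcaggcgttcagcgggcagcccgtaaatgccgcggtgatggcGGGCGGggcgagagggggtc
Acads: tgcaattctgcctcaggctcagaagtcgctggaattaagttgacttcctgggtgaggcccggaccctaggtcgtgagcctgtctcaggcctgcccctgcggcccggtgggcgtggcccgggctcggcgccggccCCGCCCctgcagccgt
Acadvl: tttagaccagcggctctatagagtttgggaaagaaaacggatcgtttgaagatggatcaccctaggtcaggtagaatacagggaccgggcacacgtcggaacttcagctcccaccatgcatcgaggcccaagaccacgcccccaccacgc

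The 85 bases between Hadha and Hadhb, which run in opposite directions, carried 2 GC boxes, and the stretches of Idh2 and Acadvl carried none. Across the 300-base RefSeq promoter windows (250 bases before the start and 50 after, both strands searched), 24 of the 34 members with a window held GGGCGG, 70.6% against 67.3% of 9985 tested genes with a window. Idh2 was among these 24, with the match outside its printed stretch, and Acadvl was not. The TCF/LEF motif CTTTGAT, the element through which beta-catenin partners bind DNA, was in 0 of 34 member windows and in 3.04% of tested genes. The ERR site AAGGTCA was in 3 members (Ogdh, Got1 and Acadm; 3.91% of tested genes). The ETS motif CCGGAAGT was in Dlst, Cpt2 and Slc25a20 (9.19%), the CREB motif TGACGTCA in Ogdh and Mdh2 (3.59%) and the NRF1 motif in Etfdh (2.36%). The PPAR response element, a pair of AGGTCA with 1 base between them, and the SREBP motif TCACNCCAC were in no member window, with 0.0501% and 1.43% of tested genes holding them. These matches describe letters in a window, not binding.

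All 35 genes passed the filter of a mean of at least 1 RPM, which kept 13597 genes. Per kilobase of their longest coding transcript, the most abundant over all 6 libraries were Etfb (241 RPM per kb), Mdh2 (207), Mdh1 (169), Mpc1 (128) and Idh3g (112). The least abundant were Dlst (9.54 RPM per kb), Got1 (9.43), Dlat (8.97), Cpt2 (7.40) and Ppard (0.565), so both malate dehydrogenase genes were far above Cpt2 and the E2 acyltransferase genes Dlst and Dlat. DMSO 1 held the lowest value of the 6 for 17 of the 35 genes, against 21.8% of all tested genes, and YH250 2 held the highest for 16, against 25.1%.

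**Figure D1:**
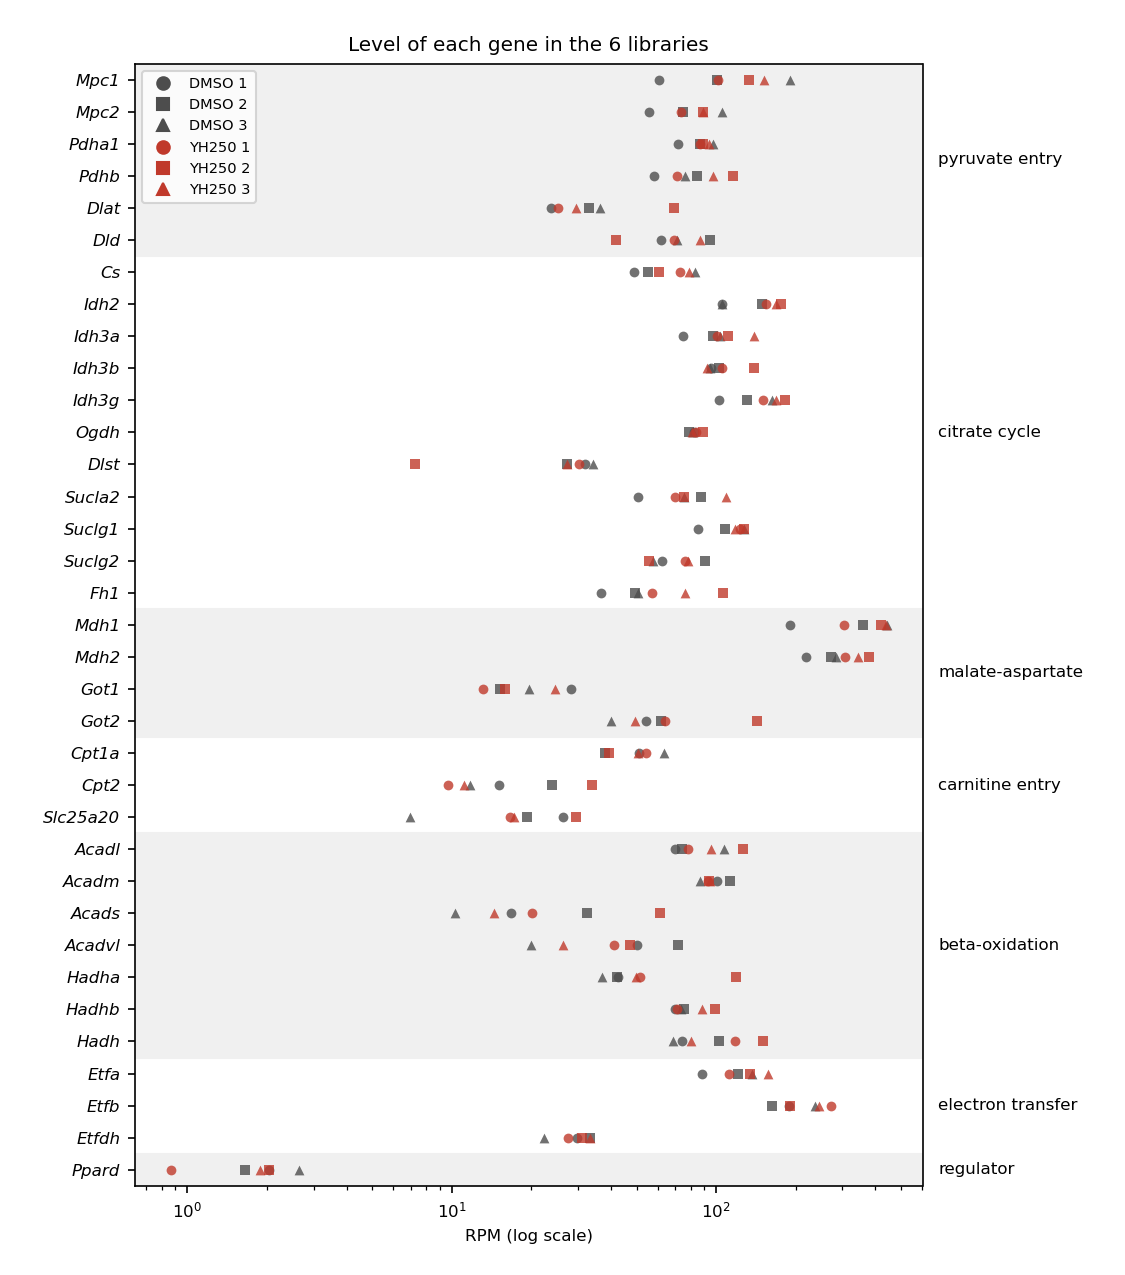
RPM on a log axis for each of the 35 genes in each library, grouped by role; grey is DMSO, red is YH250 and the shape gives the library number. Groups overlap for 31 genes, Ppard lies between 0.866 and 2.64 RPM, and YH250 2 stands apart for Dlst at 7.24 RPM.

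Between YH250 and DMSO no gene of these pathways passed the test. With limma on log2(RPM + 1) and Benjamini-Hochberg adjustment, 0 of 13597 genes (0%) and 0 of 35 members had an adjusted p under 0.05, and the adjusted p was 0.999 for each member. Without adjustment, 231 genes (1.7%) and 1 member, Fh1, had a limma p under 0.05. With the library number as a block the unadjusted calls were 1012 genes (7.44%) and 6 members (Fh1, Idh2, Mdh2, Got2, Hadha and Hadh, all higher in YH250, where 4.46% of genes were called higher), each with an adjusted p of 0.66.

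The means leaned one way. The mean of log2(RPM + 1) was higher in YH250 for 27 of 35 members, where 51.7% of all tested genes were higher, and the members' median difference was 0.22 on the log2(RPM + 1) scale against 0.02 for all genes. With each library rescaled so that its genes sum to one common total, 24 of 35 members were higher beside 41.7% of genes, and the median was 0.13 against -0.07. The medians at numbers 1, 2 and 3 were 0.26, 0.23 and 0.20, with 0.06, 0.06 and -0.06 for all genes. Without both libraries numbered 2 the median was 0.22, and without both numbered 3, the ones with the most Cd48, it was 0.30. It was smaller without some single libraries: 0.076 without DMSO 1 (22 of 35 higher), 0.13 without YH250 2 (27 higher), and 0.033 when rescaled and without YH250 2 (21 higher). In such sorted pools more cells of a type and more RNA per cell cannot be told apart.

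At all 3 numbers 13 members were higher in YH250, where 16.1% of genes were: Pdhb, Idh2, Idh3a, Idh3g, Fh1, Mdh2, Got2, Acads, Hadha, Hadhb, Hadh, Etfa and Etfb. Dlst alone was lower at all 3, where 15% of genes were. In 4 members (Fh1, Mdh2, Idh2 and Hadha) every YH250 value lay above every DMSO value, where 3.79% of genes did so, and in 0 members every YH250 value lay below, against 3.68%. After rescaling, those without overlap were 3 members (Fh1, Mdh2 and Idh3g, beside 2.17% of genes) with higher and 0 with lower values (5.02% of genes), so Idh2 and Hadha depended on the scaling.

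**Figure D2:**
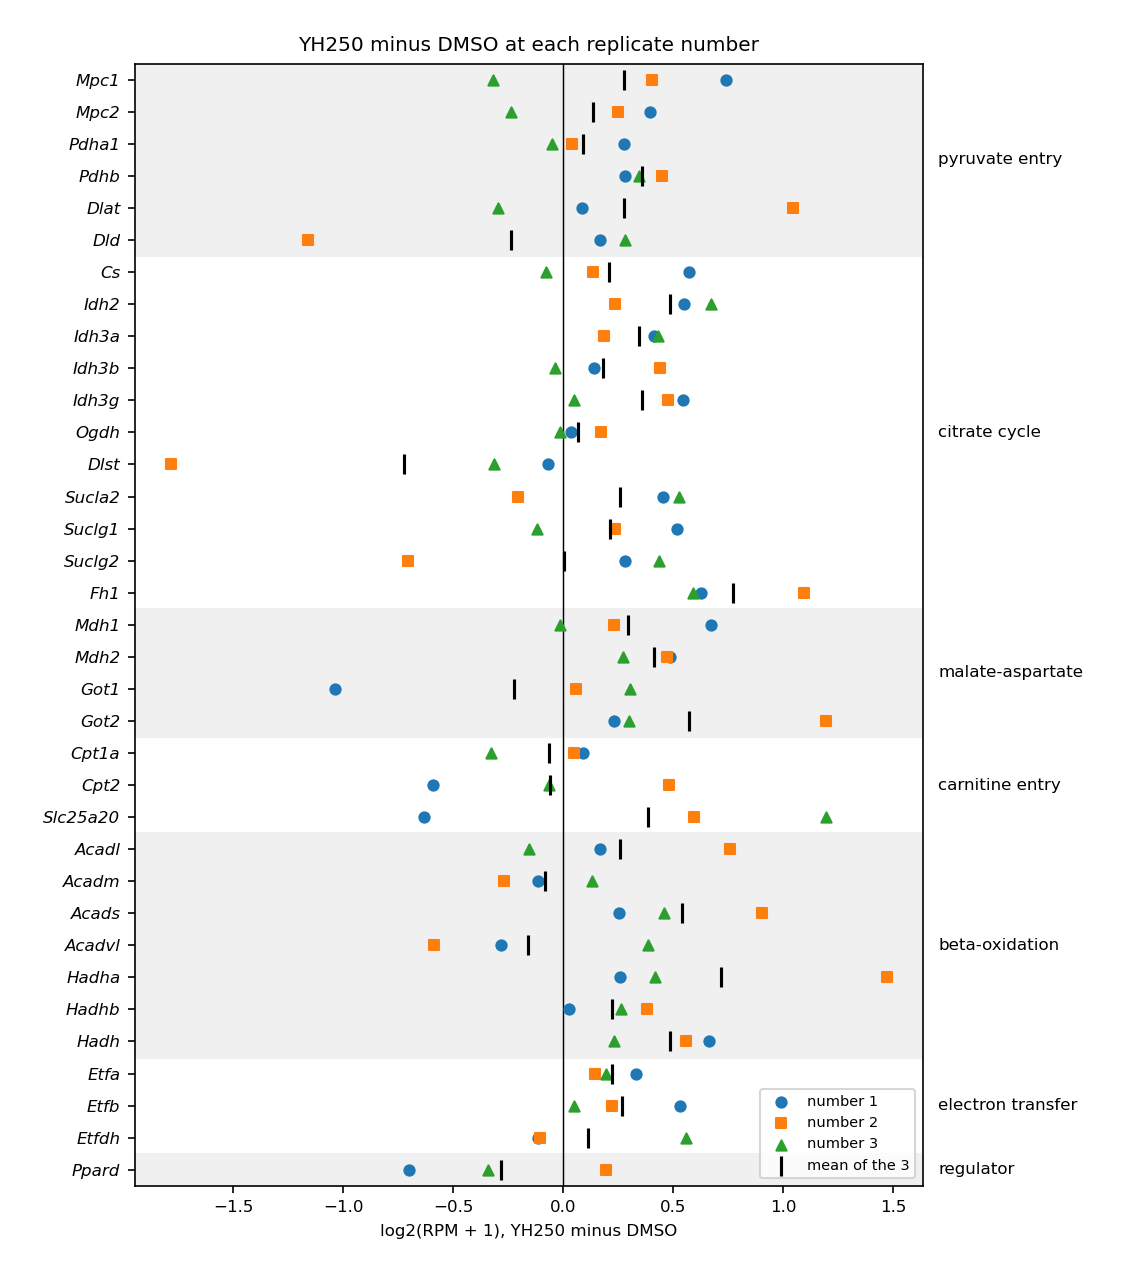
Difference on the log2(RPM + 1) scale between YH250 and DMSO at each library number (symbols) and the mean of the 3 (bars) for the 35 genes, grouped by role. Of the 35 bars, 27 lie right of 0, up to 0.77 for Fh1, while number 2 gives the extremes for Dlst, Dld, Got2 and Hadha.

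At pyruvate entry, 5 of 6 genes had a higher mean log2 level in YH250, with a median difference of 0.21 (log2) and no call. Mpc1 and Mpc2 encode the subunits of the mitochondrial pyruvate carrier. Mpc1 was at 60.7, 101 and 189.8 RPM in DMSO 1 to 3 and at 102, 134 and 152 RPM in YH250 1 to 3, so the treated values lay inside the DMSO range. Mpc2 was at 55.5, 75.1 and 105 RPM in DMSO and at 73.4, 89.4 and 89.0 RPM in YH250, again inside it. Both carrier genes were higher in YH250 at numbers 1 and 2 and lower at number 3.

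Pdha1, the catalytic E1 alpha subunit whose phosphorylation turns the pyruvate dehydrogenase complex off, was among the steadiest members. It was at 71.6, 86.6 and 97.6 RPM in DMSO and 87.0, 89.1 and 94.3 RPM in YH250, or 85.3 ± 13.0 against 90.2 ± 3.75 RPM (SD, n = 3), a log2 difference of 0.09. Pdhb, the E1 beta subunit, had the largest difference of the group, 0.36, from 58.1, 84.6 and 76.1 RPM in DMSO to 70.9, 116 and 96.9 RPM in YH250, and it was 0.20 without YH250 2. The other subunits split at YH250 2. Dlat, the E2 acetyltransferase, was at 69.3 RPM there and at 23.8 to 36.3 RPM in the other 5 libraries, whereas Dld, the E3 dehydrogenase that the 2-oxoglutarate complex also uses, was at 41.8 RPM there and at 61.6 to 94.7 RPM elsewhere. The ratio of Dld to Dlat was 0.604 in YH250 2 and 1.96 to 2.95 in the others.

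In the citrate cycle, 10 of 11 genes had a higher mean log2 level in YH250, with a median difference of 0.21 and no call; Suclg2, counted among the 10, was lower as a mean RPM. Fh1 (fumarase, chr1:175600374-175625635, which hydrates fumarate to malate) had the largest. It was at 36.6, 49.3 and 50.5 RPM in DMSO and at 57.2, 106 and 76.5 RPM in YH250. The lowest YH250 value exceeded the highest DMSO value, and at each number YH250 was higher. The means were 45.5 ± 7.65 and 80.0 ± 24.7 RPM (SD, n = 3), a log2 difference of 0.77 ± 0.28 (SE) with an unadjusted p of 0.024 and an adjusted p of 0.999 by limma; with the number block the unadjusted p was 0.003 and the adjusted p 0.66. Without YH250 2 the difference was 0.55, and after rescaling it was 0.68.

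Idh2 (chr7:80094846-80115392), the mitochondrial NADP-dependent isocitrate dehydrogenase, was at 105, 149 and 105 RPM in DMSO and at 154, 176 and 169 RPM in YH250. The groups did not overlap, but DMSO 2 and YH250 1 were close. The means were 119.9 ± 25.6 and 166 ± 11.4 RPM (SD, n = 3), a log2 difference of 0.49 ± 0.23 (SE) with a limma adjusted p of 0.999. Of the NAD-dependent enzyme, which drives the cycle itself, the catalytic gene Idh3a was at 75.2, 97.6 and 103 RPM in DMSO and 100.3, 111 and 139 RPM in YH250, and YH250 1 lay below DMSO 3. Its subunit genes Idh3b and Idh3g differed by 0.18 and 0.36.

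Cs, the citrate synthase that opens the cycle, was at 48.8, 55.4 and 83.1 RPM in DMSO and at 72.9, 60.8 and 78.8 RPM in YH250, with full overlap and a difference of 0.21. Ogdh, the E1 subunit of the 2-oxoglutarate dehydrogenase complex, had the smallest range of the set on the authors' scaling, but not after rescaling, where Pdha1 did. It was at 82.1, 78.9 and 81.6 RPM in DMSO and at 84.3, 89.2 and 80.8 RPM in YH250. Dlst, the E2 subunit of the same complex, had the largest lower difference of the 35, -0.72 ± 0.49 (SE). It was at 31.9, 27.3 and 34.1 RPM in DMSO and at 30.4, 7.24 and 27.2 RPM in YH250, and without YH250 2 the difference was -0.10, so 1 library carried it. The ratio of Dlst to Ogdh was 0.0811 in YH250 2 and 0.337 to 0.418 in the other 5 libraries.

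The succinyl-CoA ligase genes showed no common direction at number 2. Sucla2, the ADP-forming beta subunit, was at 50.8, 87.5 and 75.4 RPM in DMSO and 69.9, 75.8 and 109 RPM in YH250. Suclg2, the GDP-forming counterpart, differed by 0.0039, and Suclg1, the shared alpha subunit, by 0.21. All 3 genes overlapped between groups.

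Of the 4 malate-aspartate shuttle genes, 3 had a higher mean log2 level in YH250, with a median difference of 0.35 and no call. Mdh2 (chr5:135778480-135790398), the matrix malate dehydrogenase of both the cycle and the shuttle, was at 219, 272 and 284 RPM in DMSO and at 307, 378 and 344 RPM in YH250. Every treated library was above every control library, also after rescaling. The means were 258 ± 34.9 and 343 ± 35.7 RPM (SD, n = 3), a log2 difference of 0.41 ± 0.21 (SE) with a limma adjusted p of 0.999. Without YH250 2 the difference was 0.34 and without DMSO 1 it was 0.30.

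Mdh1, its cytosolic counterpart, was at 190.4, 358 and 442 RPM in DMSO and 304, 420.0 and 437 RPM in YH250, with the difference of 0.30 coming from numbers 1 and 2. The mitochondrial aspartate aminotransferase Got2 was at 54.4, 61.8 and 40.0 RPM in DMSO and 64.0, 142 and 49.4 RPM in YH250. Its difference of 0.57 became 0.13 without YH250 2. The cytosolic Got1 was at 28.1, 15.2 and 19.6 RPM in DMSO and 13.2, 15.9 and 24.5 RPM in YH250, lower at number 1 by 1.04 and higher at the other two. The ratio of Got2 to Got1 ranged from 1.93 to 4.07 in DMSO and from 2.02 to 8.98 in YH250.

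**Figure D3:**
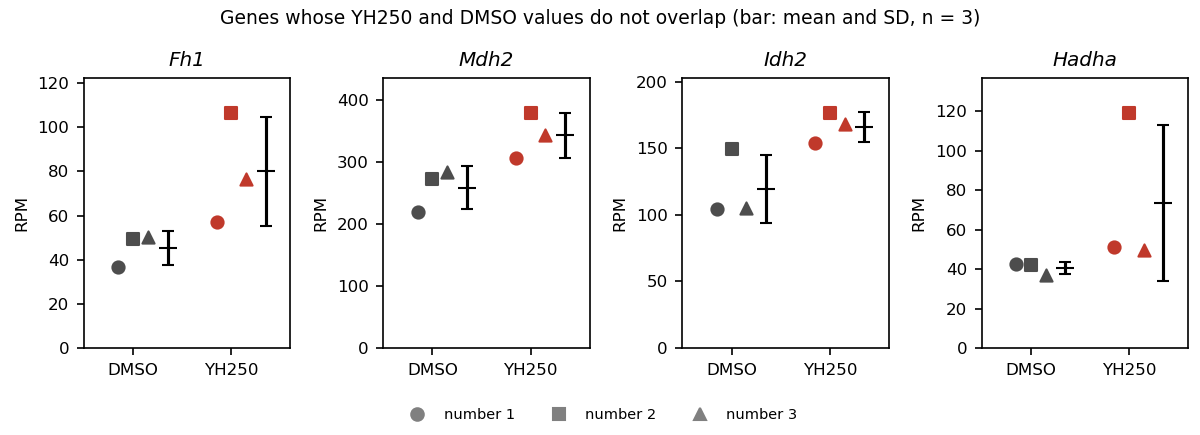
RPM by library for Fh1, Mdh2, Idh2 and Hadha, the genes whose groups did not overlap, with the mean and SD of 3 libraries beside each group. The y axes start at 0, and YH250 2 is the highest point in all 4 panels, farthest from the other treated libraries for Hadha at 119 RPM.

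At carnitine entry, 1 of 3 genes had a higher mean log2 level in YH250 (median -0.06), and Cpt2 was higher only as a mean RPM. Cpt1a, the rate-limiting carnitine palmitoyltransferase of the outer membrane, was at 51.1, 37.9 and 63.6 RPM in DMSO and at 54.4, 39.2 and 50.5 RPM in YH250. Number 2 was the lowest in both groups, and the log2 difference was -0.06. Cpt2, the inner-membrane enzyme, was at 15.1, 23.9 and 11.7 RPM in DMSO and 9.68, 33.8 and 11.1 RPM in YH250. Its mean difference was also -0.06, but -0.60 without YH250 2. The carnitine-acylcarnitine translocase Slc25a20 was at 26.4, 19.2 and 6.92 RPM in DMSO and at 16.7, 29.5 and 17.1 RPM in YH250, and it spread more within DMSO than between groups.

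In beta-oxidation, 5 of 7 genes had a higher mean log2 level in YH250 (median 0.26), with no call. Acadm, the medium-chain acyl-CoA dehydrogenase, was at 101, 113 and 86.7 RPM in DMSO and at 93.0, 93.7 and 95.1 RPM in YH250, whose 3 values lay within the DMSO range. Acadvl, the very-long-chain enzyme of the inner membrane, was at 50.0, 71.4 and 19.98 RPM in DMSO and 40.9, 47.2 and 26.4 RPM in YH250, a difference of -0.16. Acads, the short-chain enzyme, was at 16.8, 32.4 and 10.2 RPM in DMSO and 20.2, 61.4 and 14.5 RPM in YH250. Its difference of 0.54 became -0.056 without YH250 2.

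Hadha and Hadhb encode the alpha and beta subunits of the mitochondrial trifunctional protein, which carries out the later steps on long chains. Hadha (chr5:30118304-30155162) was at 42.7, 42.3 and 37.2 RPM in DMSO and at 51.3, 119 and 49.9 RPM in YH250. The groups did not overlap, and YH250 2 lay far above the other treated libraries. The means were 40.7 ± 3.09 and 73.3 ± 39.4 RPM (SD, n = 3), a log2 difference of 0.71 ± 0.34 (SE) with a limma adjusted p of 0.999, and without YH250 2 the difference was 0.31. Hadhb (chr5:30155248-30184593), on the other side of the shared promoter shown above, was at 70.0, 75.5 and 73.7 RPM in DMSO and at 71.3, 98.6 and 88.6 RPM in YH250. Thus the partner transcripts did not keep one ratio: Hadha over Hadhb was 0.504 to 0.610 in DMSO, 0.719 and 0.563 in YH250 1 and 3, and 1.21 in YH250 2. In that library 6 of 9 tested endothelial and stromal markers were also at their highest, where 25.1% of all tested genes were. It also held the lowest value for 25.0% of all tested genes. The markers were led by Cxcl12 at 202 RPM and Lepr at 58.2 RPM, while Col1a1 was at 0.291 RPM, and their part in the result was not tested. Hadh, the medium- and short-chain 3-hydroxyacyl-CoA dehydrogenase, was at 74.0, 102 and 68.4 RPM in DMSO and at 118, 151 and 80.6 RPM in YH250, higher at each number but with overlapping groups.

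All 3 genes that pass electrons from acyl-CoA dehydrogenases to ubiquinone had a higher mean log2 level in YH250, by 0.11 to 0.27, and none was called. Etfb, the beta subunit of electron transfer flavoprotein, was at 188, 163 and 236 RPM in DMSO and at 272, 189.8 and 244 RPM in YH250. Etfa, the alpha subunit, was at 88.7, 121 and 137 RPM in DMSO and 112, 134 and 157 RPM in YH250, higher by 0.15 to 0.33 at each number. Ppard, the nuclear receptor PPAR-delta, was near the detection filter at 2.03, 1.66 and 2.64 RPM in DMSO and 0.866, 2.04 and 1.88 RPM in YH250. Its difference was -0.28, with overlap.

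The genes of the neighbouring pathways that were listed beside the members gave no call for YH250 either. Of 12 tested genes listed with the pyruvate dehydrogenase complex, not all of them its regulators, 5 had a higher mean log2 level (median -0.17). Pdpr, the regulatory subunit of pyruvate dehydrogenase phosphatase, was at 5.94, 3.68 and 3.48 RPM in DMSO and at 1.58, 0.761 and 1.04 RPM in YH250. Its groups did not overlap, with a log2 difference of -1.32 ± 0.46 (SE), an unadjusted p of 0.018 and a limma adjusted p of 0.999. The kinase gene Pdk1 was at 50.4, 50.8 and 73.7 RPM in DMSO and 41.7, 35.2 and 60.1 RPM in YH250, lower at each number. Pdk3 differed by 0.15 and Pdk2 by 0.28, the latter between 2.78 and 32.02 RPM, and Pdk4 did not pass the level filter. Pdhx, the subunit that anchors Dld, differed by -0.59 and the phosphatase gene Pdp1 by -0.77. The rest, Pdp2, Bckdk, Lias, Lipt1, Sirt3 and Sirt4, lay between -0.59 and 0.40.

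Of 21 other citrate cycle genes tested, 11 had a higher mean log2 level (median 0.07), with Nnt, which makes mitochondrial NADPH from NADH, at -0.48 and the malic enzyme Me2 at 0.53. Of 35 other fatty acid oxidation genes, 16 were higher (median -0.05). Slc22a5, the carnitine importer of the plasma membrane, was at 15.1, 20.7 and 20.1 RPM in DMSO and at 11.4, 3.89 and 11.5 RPM in YH250, without overlap (unadjusted p = 0.035, limma adjusted p = 0.999). Ivd, the isovaleryl-CoA dehydrogenase of leucine breakdown, differed by 0.55. Of 12 peroxisomal genes, 7 were higher (median 0.03). Hsd17b4, the peroxisomal multifunctional enzyme, differed by 0.46.

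Of 10 tested PPAR-delta target genes, which include members, 8 had a higher mean log2 level in YH250 (median 0.36), with Hadha as above and the fatty acid transporter Cd36 at 1.07, 1.40 and 4.69 RPM in DMSO and 5.16, 4.84 and 3.71 RPM in YH250. Of 16 other regulators, 12 were higher (median 0.11), Pparg the most at 0.99 with 12.8 RPM in YH250 2 and 0.844 to 3.05 RPM elsewhere. Some other lists leaned the same way: 67 of 71 nuclear respiratory chain genes (median 0.19), 17 of 21 glycolysis genes (median 0.20) and 18 of 21 genes of mitochondrial upkeep (median 0.26) also had a higher mean log2 level in YH250. So did 20 of 20 S phase genes (median 0.38), 16 of 20 G2/M genes (0.39), 9 of 9 B cell markers (0.61), 11 of 13 T and NK cell markers (0.90) and 8 of 9 endothelial and stromal markers (0.54), with no call, and their part in the lean of the members was not tested. Not every list did so. Higher in YH250 were 8 of 13 myeloid granule genes (median 0.23), 7 of 14 stem cell and sort genes (-0.00094) and 3 of 7 tested erythroid genes (-0.29).

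Differences between library numbers passed the test where the treatment did not. With treatment as a second term, limma with Benjamini-Hochberg adjustment called 1164 of 13597 genes (8.56%) between number 3 and number 1, of which 761 were higher (5.6%) and 403 lower (2.96%) in number 3. In number 3, 2 members rose, Mpc1 and Mdh1, and 0 fell. Mpc1 (chr17:8282904-8297661) was higher in number 3 by 1.10 ± 0.26 (SE, log2; limma adjusted p = 0.031), from 60.7 and 102 RPM to 189.8 and 152 RPM. Mdh1 (chr11:21556787-21572367) was higher by 0.86 ± 0.21 (limma adjusted p = 0.036), from 190.4 and 304 RPM to 442 and 437 RPM. The 2 libraries of number 3 lay above both libraries of number 1 for each gene. Both calls depended on the scaling: rescaled to the common gene total, the adjusted p was 0.081 for Mpc1 (0.74) and 0.11 for Mdh1 (0.51). Both also ended without DMSO 1 (limma adjusted p of 0.31 and 0.50) and without DMSO 3 (0.35 and 0.15), with no minimum mean (0.19 and 0.16), with quantile normalization (0.056 and 0.14) and with eBayes without trend (0.18 and 0.20); Mdh1 also lost it with no treatment term (0.060).

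The members' median for number 3 against 1 was 0.19, with 22 of 35 higher beside 52.9% of genes, and it turned to -0.16 after rescaling, which moved the median of all genes from 0.04 to -0.28 and the share of calls that were higher from 65.4% to 34.3%. By role, all 6 pyruvate entry genes were higher in number 3, where 5 of 7 beta-oxidation genes were lower; after rescaling Pdha1 (-0.08) and Dld (-0.09) were lower too, as was Hadhb (-0.16) in beta-oxidation. Acadvl differed by -0.95 ± 0.29 (limma adjusted p = 0.077), and by -1.30 after rescaling, where it was called (adjusted p = 0.038). In the citrate cycle Sucla2 had the largest difference, 0.60, and in electron transfer Etfa, 0.55; neither was called.

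Between number 3 and number 2 limma called 858 genes (6.31%), 499 higher (3.67%) and 359 lower (2.64%), and 2 members, both acyl-CoA dehydrogenases, were lower in number 3. Acads (chr5:115110299-115119346) was lower by -1.79 ± 0.32 (SE, log2; limma adjusted p = 0.013), from 32.4 and 61.4 RPM to 10.2 and 14.5 RPM. Acadvl (chr11:70010183-70015411) was lower by -1.30 ± 0.29 (limma adjusted p = 0.033), from 71.4 and 47.2 RPM to 19.98 and 26.4 RPM. Both kept an adjusted p under 0.05 after rescaling (0.011 and 0.026) and lost it without DMSO 3 (0.096 and 0.32), with no minimum mean (0.12 and 0.19) and with eBayes without trend (0.066 and 0.13); Acads also lost it without YH250 3 (0.073). This contrast shares the number 3 libraries with the one above. Between number 2 and number 1 limma called 27 genes (0.199%) and 0 members, and at an unadjusted p under 0.05 it gave 8 members beside 14.3% of genes.

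**Figure D4:**
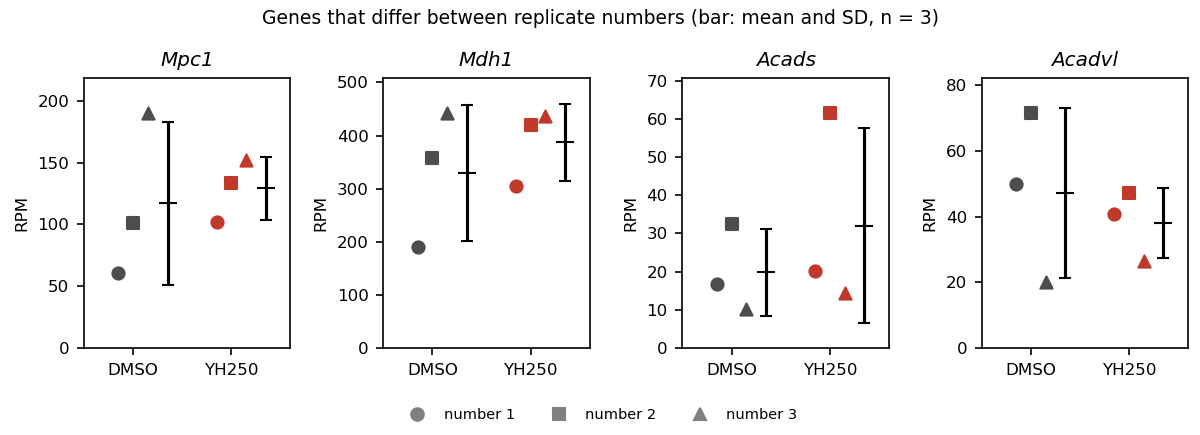
RPM by library for Mpc1, Mdh1, Acads and Acadvl, the genes called between library numbers, with the mean and SD of 3 libraries beside each group; shapes give the number and the y axes start at 0. Triangles (number 3) lie above circles (number 1) for Mpc1 and Mdh1 and below squares (number 2) for Acads and Acadvl, in both groups.

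The libraries numbered 3 were those with the highest Cd48 and B cell marker levels and the highest share of the scaling total in genes. Of the 9 tested B cell markers, 9 were called higher in number 3 than in number 1, where 5.6% of all genes were. Of 13 T and NK cell markers 6 were called higher, and of 20 G2/M genes 8. Of 14 stem cell and sort genes 9 were called lower, where 2.96% of all genes were, and 4 were called higher (median -1.87). Their part in the differences of Mpc1, Mdh1, Acads and Acadvl was not tested. Related genes called between numbers 3 and 1 by limma included Sdhb of succinate dehydrogenase (1.01, adjusted p = 0.026) and Me2 (1.01, adjusted p = 0.033), both higher. Those called lower by limma included Fabp4 (-2.92, adjusted p = 0.018), Cpt1c (-2.16, adjusted p = 0.038) and Rxrb (-0.94, adjusted p = 0.049). Cpt1c was a low gene, with a mean of 1.39 RPM. The 71 respiratory chain genes had a median of 0.56 in the same contrast with 4 called higher, beside 5.6% of all genes. The 21 glycolysis genes had a median of -0.40 with 2 called lower, beside 2.96% of all genes. These calls and medians are on the authors' scaling, and rescaling moved the median of all genes from 0.04 to -0.28.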

How the data were processed

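The authors deposited 1 normalized signal per gene and library, from poly(A) RNA made into full-length cDNA and read as single ends, per the labels' protocols. TopHat2 2.0.8, CASAVA 1.8.2, Partek and the build mm10 appear in the submitters' processing notes; their roles, the annotation and any use of strand are not given in the sources used here. No unit is stated. The lowest value is exactly 1, and the commonest small excess over it was taken as 1 read. Values were therefore read as RPM plus 1 and the 1 was removed. Some values lay below 1 read, such as Cpt1b at 3e-05 RPM in DMSO 3. Of low values (up to 20 reads), 61.1% to 68.4% lay within 0.1 of a whole read, too few to recover reads, and no count test was run. One read was worth 0.0321 to 0.0455 RPM, which sets the precision of low genes such as Ppard.

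Symbols were matched for 40254 of 41128 genes; positions are GENCODE M21 on GRCm38 (mm10), promoters RefSeq GRCm38.p6 for 34 of 35 members. Reads shared with pseudogenes or near-identical copies could be split, so such levels are uncertain. log2(RPM + 1) was fitted with limma 3.58.1 (R 4.3.3; lmFit, eBayes with trend and robust) over genes averaging 1 RPM or more in the 6 libraries, at a Benjamini-Hochberg adjusted p of 0.05; low genes change by more than this scale shows. The script was tested on simulated data. Library numbers come from the labels. Deviations of same-numbered libraries correlated at 0.55, 0.26 and 0.70 over all genes, so the numbers were taken as pairs and a fit with a replicate block was run beside the main one. Over the members alone these correlations were 0.15, 0.47 and 0.56, weakest at number 1. Other settings were other pseudocounts, filters, scalings and left-out libraries.

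The members and gene lists were chosen with earlier results of these data known. Named were the gate steps of each pathway, members whose groups do not overlap, the largest difference per role and those called. Also named were the 2 related genes per list with the smallest p, and the genes listed with the pyruvate dehydrogenase complex. Dlat, Dld, Dlst, Idh3b, Idh3g, Suclg1, Suclg2, Slc25a20, Hadhb and Hadh were named after their values were seen. So were the related genes Sdhb, Fabp4, Cpt1c and Rxrb. A related gene that the rule names is not reported here.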

Additional observations from a re-analysis of the deposited data

How the results depend on the processing

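In the comparison of YH250 with DMSO, 0 genes passed under all 21 settings. The replicate block was among them (0 genes, 0 members, members' median 0.22) and was fitted for this comparison only. The unadjusted calls with the block are given with that comparison. The members' median was 0.13 rescaled, 0.17 with quantile normalization, 0.13 with array weights, 0.18 and 0.30 without both libraries numbered 1 or 3, and, chosen after seeing the data, 0.033 rescaled without YH250 2 and 0.075 rescaled without DMSO 1; leaving out 1 library gave 0.076 to 0.35. For number 3 against number 1 the calls were 180 genes with no minimum mean and 526 with plain eBayes, and members called were 0 (no minimum mean, quantile, plain eBayes) or 1 (rescaled, no treatment term). For number 2 against number 1 the genes called were 0 (no minimum mean, plain eBayes), 75 (minimum of 5 RPM) and 46 (quantile). For number 3 against number 2 they were 42 (no minimum mean) and 154 (plain eBayes), with 0 members under both and 4 under the minimum of 5 RPM, rescaling and quantile normalization. The cause was not tested.

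Leaving out 1 library gave 417 to 3010 genes and 0 to 4 members for number 3 against number 1, 39 to 1764 and 0 to 7 for number 2 against number 1, and 250 to 3137 and 0 to 8 for number 3 against number 2; these fits leave 1 number with a lone library, assumed to vary like the others. One read was worth 0.0321 to 0.0455 RPM, and the lowest member, Ppard, was at 0.866 to 2.64 RPM.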
